A study of Mus musculus with 4 samples.

Results

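The testis supporting cell program was followed in embryonic ovaries through 8 genes, Sox9, Sox8, Amh, Dmrt1, Ptgds, Aard, Cst9 and Erbb4, which were taken by name from the 34682 gene symbols of the count table. RNA was sequenced from ovaries of mouse embryos at E13.5 in 4 libraries, 2 from mutants overexpressing Sall1 and 2 from wild types, numbered 1 and 2 in each group. The mutants carry a BAC in which the coding sequence of Sall1 takes the place of Wt1 under the Wt1 regulatory elements, so that the transgene is driven in gonadal somatic cells. It was integrated with piggyBac into female embryonic stem cells of a C57BL/6J or C57BL/6J-129 background, clones were picked, and mice were made by morula aggregation. How many clones, embryos or ovaries a library holds is not given in the sources used here, so p-values measure only the spread between these libraries. The wild types are described both as littermates and, for RNA-seq, as CD1 mice, while their columns are named B6, and strain and genotype cannot be told apart on this basis.

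Sertoli cells are the supporting cells of the testis, and pre-granulosa cells are their counterpart in the ovary. In XY gonads Sry switches on Sox9, which with Sox8 keeps the supporting cells on the testicular path, induces Amh and is sustained by the prostaglandin D2 made by Ptgds. Loss of Foxl2 or of Wnt4 signalling in female gonads is known to release parts of this program. None of the genes is restricted to Sertoli cells in every setting, and Dmrt1 is also expressed by fetal germ cells of both sexes.

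Library totals lay between 11036313 and 17869840 counts, and both mutant libraries were shallower than the wild-type ones. Levels are given as CPM, the standard depth-scaled count of edgeR, with library totals multiplied by TMM factors of 0.989 to 1.01, and a count of 3, which corresponds to 0.170 to 0.272 CPM, was taken as the floor. These floors and the intervals on counts cover counting error only. The transgene's product, Sall1, was counted 1243 and 1445 times in mutants and 279 and 223 times in wild types, which gave 2.85 on the log2 scale with a standard error of 0.16 (edgeR, adjusted p = 0.00823). The ovarian markers Foxl2, Fst, Wnt4 and Rspo1 and the germ cell markers Ddx4 and Dazl had between 481 and 13710 counts in every library. Sry had 0 counts in all 4, which allows up to 3 counts per library. Neither the germ cell markers nor Sry were taken as evidence of sex at this stage. Differences were tested over 15442 genes with edgeR's quasi-likelihood test and Benjamini-Hochberg adjustment, with a threshold of 0.05. With 2 against 2 libraries, the smallest p that exact permutation allows for 1 gene is 0.333.

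Of the 8 Sertoli cell genes, 6 passed the filter on low counts and were tested, and 0 of them had an adjusted p under 0.05 in edgeR's quasi-likelihood test. Among all genes tested, 0.013% were called higher and 0.0453% lower in the mutants, so that few calls were made anywhere. At an unadjusted p under 0.05 stood 2 members, Ptgds and Aard, against 5.69% of all genes, and DESeq2 called 0 members. The call depended on the model: with the replicate number as a block, Ptgds and Aard passed, and with edgeR's likelihood ratio test Ptgds passed. Both mutant libraries lay above both wild-type libraries for Ptgds, Aard and Sox9, or 3 of the 6 genes tested, and below them for 0, where the shares of all genes were 15.8% and 15.1%. The median log2 fold change of the 6 genes was 0.47 and that of all genes -0.00088. In bulk ovaries, fewer cells of a type and less RNA per cell cannot be told apart.

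**Figure D1:**
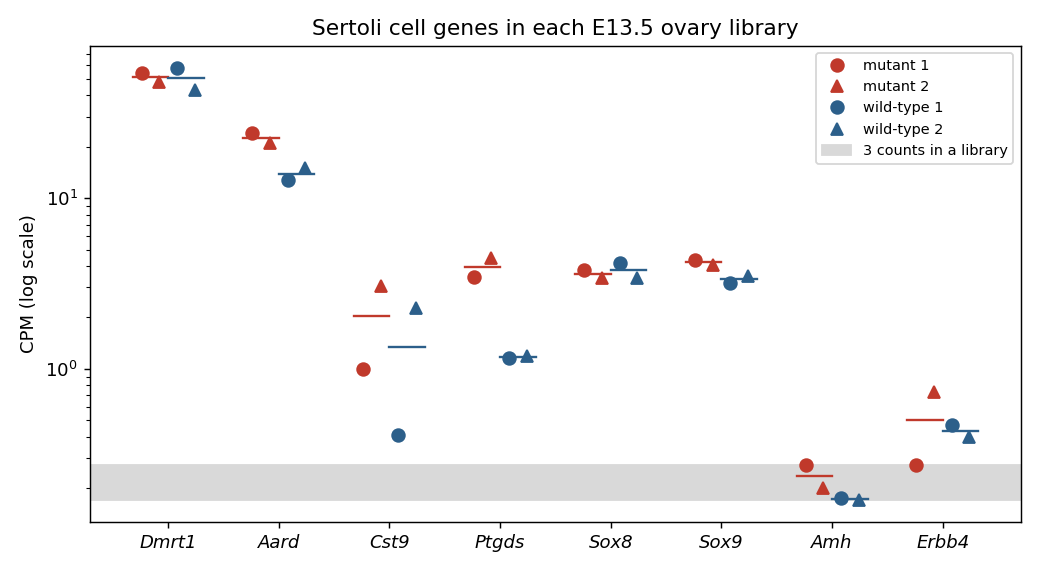
CPM (log scale) of the 8 Sertoli cell genes in each library, with red for mutant, blue for wild type, circles for replicate 1, triangles for replicate 2 and bars for group means; the grey band is the level of 3 counts. Ptgds, Aard and, by little, Sox9 separate by genotype, Cst9 separates by replicate number, and Amh lies in the band in every library.

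Ptgds, a prostaglandin D2 synthase, is taken first, with the sequence around its start beside that of Cst9. They were chosen for the largest fold change and the widest spread of the members. RefSeq promoter windows (250 bases before and 50 after the transcript start) were at hand for 4 of the 8 genes, Ptgds, Cst9, Erbb4 and Sox8. The windows were searched on both strands for 1 exact string per motif. These were AACAAT for the core bound by SOX proteins, AAGGTC for the nuclear receptor NR5A1 and AGATAA for GATA factors. Other forms of these cores were not searched, and matches of different motifs did not overlap. The sequences that follow are those of Ptgds (chr2:25469700-25469999, minus strand) and Cst9 (chr2:148834897-148835196, plus strand) on GRCm38.p6, with capitals at motif matches.
Ptgds: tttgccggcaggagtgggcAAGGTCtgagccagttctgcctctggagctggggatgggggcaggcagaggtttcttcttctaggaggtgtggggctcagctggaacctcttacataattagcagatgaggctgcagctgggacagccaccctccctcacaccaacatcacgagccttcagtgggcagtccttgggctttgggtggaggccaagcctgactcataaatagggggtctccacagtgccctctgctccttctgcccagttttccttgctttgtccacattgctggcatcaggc
Cst9: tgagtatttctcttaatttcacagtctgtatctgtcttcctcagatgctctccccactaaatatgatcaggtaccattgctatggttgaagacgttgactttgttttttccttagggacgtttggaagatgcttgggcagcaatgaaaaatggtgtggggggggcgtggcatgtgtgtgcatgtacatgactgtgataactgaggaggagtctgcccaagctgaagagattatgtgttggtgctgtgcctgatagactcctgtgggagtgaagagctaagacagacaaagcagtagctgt
The Ptgds window held 1 match, the NR5A1 core at position -231 from the transcript start, and the Cst9 and Sox8 windows held 0 matches to the 3 motifs. The Erbb4 window held the SOX core on the opposite strand at position -73. Among 32851 windows of this length, 10.7% held the SOX core, 12.3% the NR5A1 core and 11.2% the GATA core, and a match only describes the letters.

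The Ptgds gene spans positions 25322229 to 25325566 of chromosome 2 (minus strand) in GENCODE M1 on NCBIM37 (mm9, the build named in the submitters' processing notes), as do all gene positions that follow. Mutants gave 38 and 67 counts of it, and wild types 20 and 21. In CPM these were 3.45 and 4.45 against 1.16 and 1.19. Both mutant libraries were thus far above the pair of wild types, whose levels were nearly equal. The estimated ratio was 3.35-fold (95% interval 1.89 to 5.95), a log2 fold change of 1.75 (standard error 0.35, unadjusted p = 0.00163, adjusted p = 0.266 in edgeR's quasi-likelihood test), and it ranked 93 by p among all genes. This difference did not pass the threshold in the fit on genotype alone, but did with the replicate block (adjusted p = 0.0105) and in the likelihood ratio test (adjusted p = 0.0150). Of the same pathway, the prostaglandin synthase Ptgs1 had 6.01 to 9.53 CPM and the hematopoietic D2 synthase Hpgds 1.46 to 2.54 CPM over the 4 libraries, with log2 fold changes of 0.03 and 0.38. The D2 receptors Ptgdr and Ptgdr2 had 0 counts in every library, which allows up to 3 counts each, and 0 of the 2 genes tested in the list of 5 passed.

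Aard, an alanine- and arginine-rich protein whose transcript marks Sertoli cells of the fetal testis, was the second of the 3 tested members that separated the genotypes. It lies on the plus strand of chromosome 15 from 51871653 to 51877267. Mutants gave 265 and 317 counts, wild types 221 and 265, and after scaling for depth its levels were 24.0 and 21.1 against 12.8 and 15.0 CPM. The groups do not overlap once the smaller mutant libraries are taken into account, although the counts themselves do. The fold change was 1.62 (95% interval 1.25 to 2.10), or 0.69 on the log2 scale (standard error 0.16, unadjusted p = 0.00335), which did not pass on genotype alone (adjusted p = 0.356, edgeR) and passed with the replicate block (adjusted p = 0.0200).

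Markers of other cells were set beside Ptgds and Aard. The summed level of the 10 pre-granulosa cell genes was 1057 and 1043 CPM in the mutant libraries and 848 and 919 CPM in the wild-type libraries, and both mutant libraries exceeded both wild-type libraries for 6 of these 10 genes and were below them for 1, Bmp2, beside 15.8% and 15.1% of all genes. The largest differences in CPM were those of Cdkn1b (259 and 262 against 150 and 211 CPM) and Lgr5 (164 and 152 against 109 and 97.3 CPM). Wnt4 and Rspo1 had log2 fold changes of 0.0088 and -0.06. The 6 Leydig cell markers summed to 45.5 and 47.2 CPM in mutants and 57.7 and 60.0 CPM in wild types, with Insl3 at 0 to 6 counts. This total was carried by Hsd3b1 (21.8 and 28.0 against 30.3 and 38.4 CPM) and Star, while Cyp11a1, the enzyme of the first step of steroid synthesis, lay the other way (4.63 and 2.53 against 1.86 and 1.42 CPM, log2 fold change 1.11, adjusted p = 0.806, edgeR). Among the 7 duct and tubule markers, which summed to 37.2 and 51.7 CPM in mutants and 37.5 and 41.6 CPM in wild types, Pax8 separated the genotypes, with 13.9 and 17.7 against 9.07 and 9.07 CPM (log2 fold change 0.80, standard error 0.19, adjusted p = 0.372, edgeR). Ret, of the same list, lay lower in both mutants (8.71 and 14.3 against 15.2 and 17.8 CPM). Of the 6 endothelial markers, with sums of 442 and 419 CPM in mutants and 464 and 480 CPM in wild types, the receptor Kdr was at 95.1 and 90.5 against 129 and 126 CPM (log2 fold change -0.46, standard error 0.09, adjusted p = 0.266, edgeR). Kdr was the only 1 of these 6 that separated the genotypes, and 3 of their log2 fold changes were above 0 and 3 below. The 6 erythroid markers summed to 78.1 and 18.3 CPM against 107 and 42.3 CPM, with Hba-a2 and Hbb-b1 at 0 counts in all libraries. The part of these markers in the values of Ptgds and Aard was not tested, and Cyp11a1, Hsd3b1, Star, Pax8, Ret and Kdr were named after their values were seen.

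**Figure D2:**
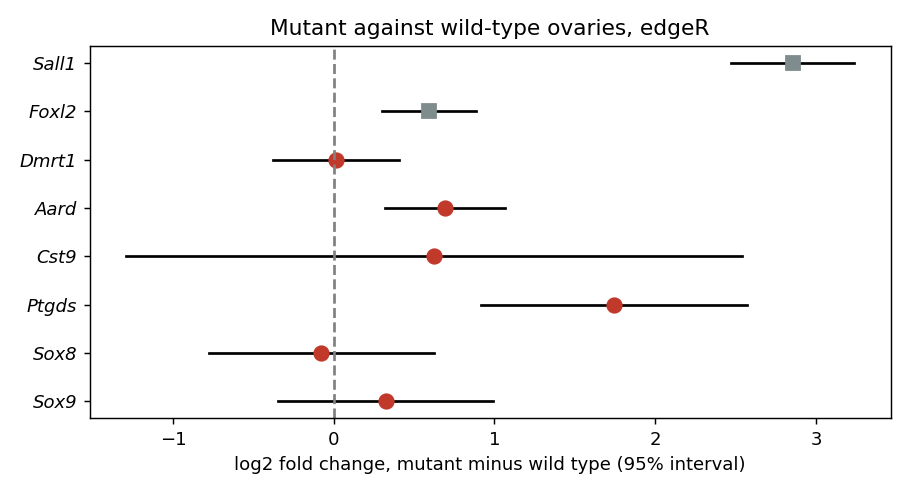
Log2 fold change (mutant minus wild type) from edgeR with 95% intervals for the 6 Sertoli cell genes tested (red circles), with Sall1 and Foxl2 (grey squares) for scale. The intervals of Ptgds (0.92 to 2.57) and Aard (0.32 to 1.07) lie above 0, those of Sox9, Sox8, Dmrt1 and Cst9 include it, and of the genes shown only Sall1 passed after adjustment in this fit on genotype alone.

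Sox9, the transcription factor that commits XY supporting cells to the Sertoli fate, lies on the plus strand of chromosome 11 from 112643538 to 112649074. It had 48, 61, 55 and 62 counts in mutant libraries 1 and 2 and wild-type libraries 1 and 2, or 4.36, 4.05, 3.20 and 3.51 CPM. The mutant values were the higher ones, but by little. The fold change was 1.25 (95% interval 0.788 to 1.99, log2 fold change 0.32, standard error 0.28, adjusted p = 1.00, edgeR), so that neither direction is left out by the interval.
Sox8, the SoxE relative that acts beside Sox9 (chromosome 17, minus strand, 25702837 to 25707631), had 42, 51, 72 and 60 counts in the same order, or 3.81, 3.39, 4.18 and 3.40 CPM, and the groups overlap. Its fold change was 0.948 (95% interval 0.584 to 1.54, adjusted p = 1.00, edgeR). The remaining SoxE gene, Sox10, which marks neural crest cells, had 13, 0, 67 and 4 counts, with high values in the libraries numbered 1 of both groups.

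Dmrt1, a DM-domain transcription factor that keeps Sertoli cells from turning into granulosa cells in the postnatal testis, lies on the plus strand of chromosome 19 from 25580108 to 25678819. Its counts were 599, 722, 1003 and 759, and its levels of 54.3, 48.0, 58.3 and 43.0 CPM placed the wild-type libraries at both ends of the range. The fold change was 1.01 (95% interval 0.769 to 1.32, log2 standard error 0.17, adjusted p = 1.00, edgeR), the narrowest relative interval but for Aard. The 7 germ cell markers, which come from a cell type that also expresses Dmrt1, summed to 1474 and 1678 CPM in the mutants and 1528 and 1643 CPM in the wild types, and 0 of them passed. Which cells carried the Dmrt1 counts was not tested. Of its paralogs, Dmrt3, beside which it lies in the genome, had 3.12 to 3.59 CPM and Dmrta1 31.6 and 32.5 CPM in mutants against 22.8 and 20.9 CPM in wild types (log2 fold change 0.55, standard error 0.12, adjusted p = 0.341, edgeR). Dmrta1 passed with the replicate block.

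Cst9, a cystatin family member expressed in fetal Sertoli cells, differed more between replicate numbers than between genotypes. It lies on the plus strand of chromosome 2 from 148660883 to 148664474. Mutant libraries 1 and 2 gave 11 and 46 counts of it, wild-type libraries 1 and 2 gave 7 and 40, or 0.998, 3.06, 0.407 and 2.27 CPM. In each group the library numbered 2 was thus several times higher than the library numbered 1, and both groups overlap. The log2 fold change between genotypes was 0.62 with a standard error of 0.81 (95% interval of the fold 0.409 to 5.81, adjusted p = 1.00, edgeR).
The same division was seen at Cst12, which lies upstream in the same cystatin cluster (chromosome 2, plus strand, 148615097 to 148619282). It had 4.45 and 28.9 CPM in mutant libraries 1 and 2 and 4.71 and 29.1 CPM in the wild-type libraries. It was not shared by Cst8 and Cst13, which lie between Cst12 and Cst9: Cst8 had 26.9 and 17.5 CPM in mutants and 37.9 and 22.8 CPM in wild types, and Cst13 0.817 and 0.465 against 0.756 and 1.42 CPM. Cst3, the cystatin gene on the other side of Cst9, was also higher in library 2 of both groups, but by less. Its levels were 85.7 and 124 CPM in mutants and 91.0 and 126 CPM in wild types. Ranked by the smaller of the differences between libraries 2 and 1 in the 2 groups, Cst9 was number 20, Cst12 number 5 and Cdh16, a cadherin of renal and mesonephric tubules, number 21 of 15442 genes. Cdh16 had 2.18 and 6.38 CPM in mutants and 0.639 and 3.40 CPM in wild types. Of the 7 duct and tubule markers, 3 were higher in library 2 in both groups, as were 29.7% of all genes, and their sum was 37.2 and 51.7 CPM in mutants and 37.5 and 41.6 CPM in wild types, with 0 markers at 0 counts. Their part in the Cst9 values was not tested. Cst12, Cst8, Cst13 and Cdh16 are shown here after their values were seen.

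**Figure D3:**
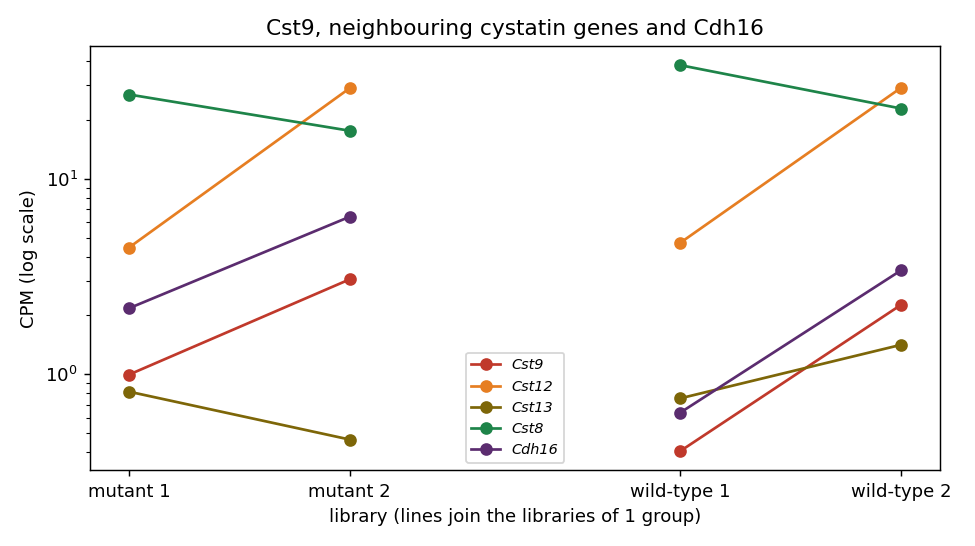
CPM (log scale) of Cst9, the neighbouring cystatin genes Cst12, Cst13 and Cst8, and the tubule marker Cdh16 in each library, with lines joining the libraries of 1 group. Cst9, Cst12 and Cdh16 are higher in library 2 of both groups, Cst8 is lower in both, and Cst13 moves in opposite directions. Cst3, on the other side of Cst9, is not shown.

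Amh, the hormone with which Sertoli cells cause the Müllerian ducts to regress, and Erbb4, a neuregulin receptor, did not pass the filter on low counts. Amh (chromosome 10, plus strand, 80267993 to 80270393, 323 bases from the neighbouring gene Sf3a2 on the same strand) had 3 counts in each of the 4 libraries, which is the floor itself. Its pooled level was 0.197 CPM (exact Poisson 95% interval 0.102 to 0.344). The counts were equal, so the order of its CPM values is set by the library totals alone and no fold is given. The hormone's type II receptor Amhr2, by contrast, had 189 and 172 CPM in mutants and 170 and 139 CPM in wild types, and the receptor Bmpr1a and the transducer Smad5 were measured at 258 to 275 and 302 to 365 CPM. Of the 6 genes of Amh signalling 0 passed.
Erbb4 (chromosome 1, minus strand, 68078760 to 69154633) had 3 and 11 counts in the mutants and 8 and 7 in the wild types, or 0.272, 0.731, 0.465 and 0.397 CPM. The mutant libraries enclose the wild types, and the ratio of summed counts was 1.25 (exact 95% counting interval 0.558 to 2.77). A pseudogene (Gm15670), an snRNA (U6atac) and a processed transcript (Gm16076) lie within its long span on the same strand. Its dimerization partner Erbb2 had 73.0 to 76.8 CPM and the related receptor Egfr 27.6 to 33.0 CPM, the neuregulin Nrg1 had 4.63 to 6.34 CPM, Nrg3 had 0 counts, and 0 of the 9 ligands and receptors tested passed.

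To compare levels between genes, CPM was divided by the exon length of each gene. The order over all 4 libraries was Dmrt1 (mean 19.6, range 16.6 to 22.5 CPM per kilobase), Aard (13.6, 9.54 to 17.9), Cst9 (2.45, 0.592 to 4.45), Ptgds (1.55, 0.705 to 2.70), Sox8 (1.19, 1.09 to 1.34), Sox9 (0.914, 0.773 to 1.05), Amh (0.123, 0.102 to 0.163) and Erbb4 (0.0377, 0.0220 to 0.0592), and it was the same with the length of the longest transcript. The place of Ptgds rests on the mutant libraries: its mean per kilobase was 2.40 in mutants, above Sox8 (1.15) and Sox9 (1.02), and 0.713 in wild types, below Sox8 (1.22) and Sox9 (0.811). The ranges of Dmrt1 and Aard overlap, as do those of Cst9, Ptgds and Sox8. That of Sox9 lies within those of Cst9 and Ptgds but does not reach those of Sox8 or Amh. The ranges of Amh and Erbb4 do not overlap either, but that of Amh is set by the library totals, with 3 counts in each library. The lowest value of Erbb4, in mutant library 1, also rests on 3 counts. The members thus spanned a wide range, with Dmrt1 and Aard at the level of pre-granulosa genes and Amh and Erbb4 near the limit of detection. Per kilobase and within a library, Sox9 reached 5.60% to 6.97% and Sox8 6.21% to 12.1% of Foxl2, the defining transcription factor of pre-granulosa cells. Amh, at 3 counts in each library, reached 0.684% to 0.944% and Erbb4 0.120% to 0.339% of Foxl2. Aard stood at 86.0% to 97.3% and Dmrt1 at 106% to 203% of Foxl2, and Ptgds at 11.4% and 15.4% in the mutants against 6.35% and 5.68% in the wild types.

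**Figure D4:**
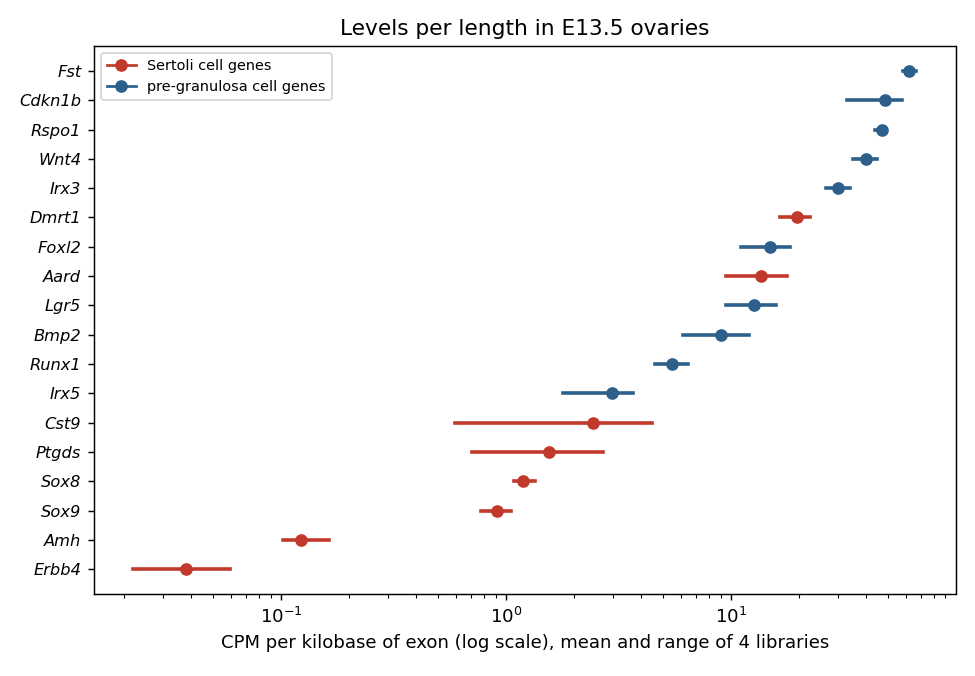
Level per kilobase of exon (log scale), as mean (point) and range (line) of 4 libraries, of the 8 Sertoli cell genes (red) and 10 pre-granulosa cell genes (blue). Dmrt1 and Aard lie among the pre-granulosa genes, and the other Sertoli cell genes have lower means than each of them.

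The remaining testis genes were examined as 2 lists. Of 18 genes that act upstream of Sox9 or beside it in testis determination, 17 were tested and 0 passed, with log2 fold changes above 0 for 10 and below 0 for 7 and a median of 0.03. Wt1, Gata4 and Nr5a1, transcription factors of the early gonad in both sexes, had log2 fold changes of 0.03, 0.13 and 0.04 with standard errors of 0.10, 0.17 and 0.13, and Fgfr2, the receptor of Fgf9, 0.31 (standard error 0.10, adjusted p = 0.706, edgeR). Lhx9, a LIM homeobox factor of the early gonad, had 132 and 101 CPM in mutants and 173 and 171 CPM in wild types (log2 fold change -0.56, standard error 0.14, adjusted p = 0.407, edgeR). Nr0b1, an orphan nuclear receptor that opposes Nr5a1, had 21.6 and 24.9 against 14.8 and 16.8 CPM (log2 fold change 0.56, standard error 0.15, adjusted p = 0.500, edgeR). Both separated the groups, in opposite directions, both passed with the replicate block, and both were named after their values were seen. Fgf9 itself, the secreted factor that represses Wnt4 in XY gonads, had 31, 20, 51 and 39 counts, or 2.81, 1.33, 2.96 and 2.21 CPM.
Of 19 further products of Sertoli cells 16 were tested and 0 passed, with 6 log2 fold changes above 0 and 10 below, and a median of -0.11. Aldh1a1, a retinaldehyde dehydrogenase, had 298 and 360 CPM in mutants and 223 and 256 CPM in wild types (log2 fold change 0.46, standard error 0.12, adjusted p = 0.500, edgeR). Inhbb, the inhibin and activin beta B subunit, had 42.3 and 31.0 CPM against 50.8 and 63.0 CPM (log2 fold change -0.64, standard error 0.18, adjusted p = 0.537, edgeR). Both differences separated the groups, in opposite directions, and both genes passed with the replicate block, as did Vnn1 of the same list. Clu and Etv5 had log2 fold changes of -0.26 and -0.00018. Fshr, the receptor of follicle-stimulating hormone in later Sertoli and granulosa cells, had 0 counts in every library, and Dhh, the hedgehog ligand of Sertoli cells, had 14, 16, 20 and 24 counts.
Of the 10 pre-granulosa genes 0 passed in the fit on genotype alone. Foxl2, Bmp2, Cdkn1b and Lgr5 passed with the replicate block, where Foxl2 had an adjusted p of 0.00878 (edgeR). Foxl2, Bmp2 and Lgr5 also passed with the likelihood ratio test, and Bmp2 and Lgr5 with DESeq2. The 4 most highly counted, Cdkn1b, Wnt4, Fst and Lgr5, had log2 fold changes of 0.53, 0.0088, 0.14 and 0.61, and Foxl2 0.59 (standard error 0.12, adjusted p = 0.301, edgeR). Bmp2 lay the other way, lower in mutants (log2 fold change -0.80, standard error 0.13, adjusted p = 0.167, edgeR). The list's median was 0.24.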

How the data were processed

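RNA from mouse ovaries was measured in 4 libraries. The authors aligned the reads with STAR 2.6.1d and counted them per gene with summarizeOverlaps, and the deposited values are raw counts per gene symbol, neither normalized nor pooled; the submitters' processing notes name mm9. The annotation and strand handling are not given in the sources used here, so genes that overlap on opposite strands cannot be told apart. All columns were matched to libraries by genotype and replicate number, and 0 were left unused. The analysis used R 4.3.3 and edgeR 4.0.16 with TMM, filterByExpr (15442 of 34682 genes) and glmQLFTest, with genotype as the only factor, an adjusted p under 0.05 and two-sided tests. The standard error is the fold change over the root of F, and 95% intervals from the t distribution. DESeq2 1.42.0, also the authors' tool, served as an alternative, besides other normalizations, filters, a likelihood ratio test, a replicate block and leaving out each library. Library totals of 11036313 to 17869840 limit the precision at low counts. The libraries of a group differed by more than sampling noise (chi-square per degree of freedom 11.8 and 13.2). Positions and exon lengths are from GENCODE M1 on NCBIM37. The members, gene lists and tests were chosen with earlier results of these data known. The genes named are the 8 members, list genes that pass, the 2 to 4 with the highest mean CPM in each list, and Sall1; others were named after their values were seen. The fits were tested on simulated data. The simulated libraries shared no replicate effect, so this test cannot decide between the fits with and without the block.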

Additional observations from a re-analysis of the deposited data

How the results depend on the processing

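The count of Sertoli cell genes called, 0, became 2 (Ptgds and Aard, both higher in mutants) with the replicate block and 1 (Ptgds) with the likelihood ratio test, and was 0 with each library left out and under the other settings. With the block, Ptgds had an adjusted p of 0.0105 and Aard of 0.0200 (edgeR). The block was not used as the main fit because neither the labels nor the methods say what a shared number marks. The column names do carry consecutive library numbers within each replicate number, whose meaning is not given in the sources used here, and deviations of same-numbered libraries from their group means correlated at 0.481 across genes. Over its alternatives other than the block and the likelihood ratio test, the adjusted p of Ptgds was 0.112 to 0.827 and that of Aard 0.211 to 1.00.

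The 9 genes called among all genes became 385 with the replicate block (2.49% of those tested), 134 with the likelihood ratio test, 105 with DESeq2, 28 with no filter, 19 with at least 10 counts in every library, 20 at an adjusted p under 0.1, and 4 to 130 with each library left out, the highest without mutant replicate 1. Of the pathway genes outside the members, 0 in the main setting, 10 were called with the block, 4 with the likelihood ratio test, 3 with DESeq2 (Bmp2, Lgr5 and Lhx9, named after their values were seen), and 0 to 5 with each library left out, 5 without mutant replicate 1. The median log2 fold change of the members, 0.47, was 0.32 with at least 10 counts in every library, a filter that removes Cst9, and 0.24 to 0.61 with each library left out.

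Of 65 fold changes of the 6 tested members under alternatives, 56 kept direction and side of the threshold, 3 passed it and 6 changed sign, each with a library left out. These ranged from -0.21 to 0.08 for Sox8, -0.18 to 0.25 for Dmrt1 and -0.42 to 2.34 for Cst9, where the sign turned without mutant replicate 2 (-0.42) and without wild-type replicate 1 (-0.12). Dmrt1 turned without mutant replicate 1 (-0.079) or wild-type replicate 2, and Sox8 without mutant replicate 2 (0.0059) or wild-type replicate 1 (0.080). Ptgds stayed at 1.54 to 1.91, Aard at 0.59 to 0.82 and Sox9 at 0.26 to 0.40. A group left with 1 library was assumed to vary like the other group. The cause of these changes was not tested beyond the smaller number of libraries or genes. Depth limits Amh and Erbb4, which the filter on low counts removed. With no filter neither passed (adjusted p = 1.00 for each, edgeR), and the log2 fold change of Erbb4 was 0.26 with a standard error of 0.70. No fold is given for Amh, which was at the floor in every library.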
